A study of Mus musculus with 64 samples.

Results

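The AP-1 transcription factors of the Fos and Jun families were described in the prefrontal cortex (PFC) and hypothalamus of mice that had received psilocybin or saline. The family was taken as the 7 genes Fos, Fosb, Fosl1, Fosl2, Jun, Junb and Jund, found by gene identifier among the 55401 genes of the count table. Of these, 6 had enough counts to be tested among 18971 genes, and Fosl1 did not. Fos proteins dimerise with Jun proteins through leucine zippers, whereas Jun proteins can also pair with each other, and the dimers bind AP-1 sites in DNA. Fos, Fosb and Junb are immediate early genes, which are transcribed within minutes of synaptic activity without new protein synthesis, mainly through SRF at serum response elements and CREB at cAMP response elements. Their mRNAs are short-lived, and for this reason Fos is widely used as a marker of recently active neurons, while Jund and Jun are present in unstimulated neurons.

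The study profiled 32 male C57BL/6J mice kept on chow in group housing, which received a single intraperitoneal injection at 10 weeks of age. The injection was either 3 mg/kg psilocybin, a serotonin receptor agonist, or isotonic saline, and no group carried a genetic change. Per the study's general methods, its mice, apart from those of the head-twitch test, also had saline sham injections in the 3 days before a study began. Brains were taken 3 h or 4 weeks after the single injection, and both the PFC and the whole hypothalamus of each mouse were sequenced as bulk RNA, which gave 8 groups of 8 libraries. The 3 h and 4-week groups therefore differed in the time since injection, in age and in the day of harvest, and these cannot be told apart. A library is 1 region of 1 mouse, and a replicate number is also the number of the cage in the labels.

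Kept libraries held 8061033 to 70361839 counts (median 18287978.5), and 2 libraries with fewer than 1000000 counts, 1 from the saline hypothalamus at 3 h (replicate 2) and 1 from the psilocybin PFC at 4 weeks (replicate 3), were left out of all values, so that both of those groups had 7 libraries. The labelled regions could be checked against markers: 5 of 5 genes of cortical excitatory neurons were higher and 9 of 9 hypothalamic neuropeptide and transcription factor genes were lower in the PFC in all 4 groups of treatment and time. In 9 libraries Alb, which encodes the liver protein albumin, reached at least 100 CPM (counts per 1000000, here with library totals scaled by the TMM factors of edgeR), and the highest value was 3789 CPM in psilocybin replicate 3 of the hypothalamus at 4 weeks. In the other 53 libraries the median of Alb was 0.449 CPM. Where a member gained or lost a call without these 9 libraries, both values are given.

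The promoters of the immediate early genes Fos, Fosb and Junb are shown, because stimulus-driven transcription of Fos is known to run through short elements close to its start, and that of Jun, which was called in no comparison of treatment or time in the edgeR fit of all 62 libraries, is set beside them. RefSeq promoters on GRCm38.p6 were matched for 6 of the 7 members, and those of Fosl2 and Jund are not printed because their RefSeq starts lie far from the gene starts of the count table. The 250 bases upstream of the RefSeq start are printed 5′ to 3′ on the strand of the gene, with capitals marking TGACG, the 5-base core of the cAMP response element, on either strand. They lie at chr12:85473640-85473889 (plus strand) for Fos, chr7:19310046-19310295 (minus strand) for Fosb, chr8:84978749-84978998 (minus strand) for Junb and chr4:95052223-95052472 (minus strand) for Jun.
Fos: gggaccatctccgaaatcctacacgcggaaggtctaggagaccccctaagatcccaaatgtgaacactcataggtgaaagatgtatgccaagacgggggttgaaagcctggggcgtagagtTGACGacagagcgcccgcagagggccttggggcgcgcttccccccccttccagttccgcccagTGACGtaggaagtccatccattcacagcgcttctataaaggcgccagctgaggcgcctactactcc
Fosb: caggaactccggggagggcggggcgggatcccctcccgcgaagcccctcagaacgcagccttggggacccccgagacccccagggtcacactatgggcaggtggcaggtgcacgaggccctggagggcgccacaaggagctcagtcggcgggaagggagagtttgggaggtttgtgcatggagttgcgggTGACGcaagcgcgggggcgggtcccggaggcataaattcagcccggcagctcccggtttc
Junb: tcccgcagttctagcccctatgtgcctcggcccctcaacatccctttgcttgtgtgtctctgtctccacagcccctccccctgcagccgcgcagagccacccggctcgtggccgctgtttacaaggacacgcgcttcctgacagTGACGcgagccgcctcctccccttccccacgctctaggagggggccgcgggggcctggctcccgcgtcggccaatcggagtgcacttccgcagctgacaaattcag
Jun: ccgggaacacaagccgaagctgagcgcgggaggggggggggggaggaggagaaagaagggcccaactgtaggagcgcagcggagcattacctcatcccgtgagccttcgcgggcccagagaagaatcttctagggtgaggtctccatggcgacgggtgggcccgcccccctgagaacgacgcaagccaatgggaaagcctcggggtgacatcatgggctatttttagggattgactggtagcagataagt

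The Fos window held TGACG at 129 and at 66 bases before the start and a TATAA element 33 bases before it. Fosb held TGACG at 60 bases and Junb at 106 bases, and the windows of Jun, Fosl2 and Jund held none. The same 250 bases before the start held these letters, on either strand, in the following shares of 32851 promoters: TGACG in 17.8%, TATAA in 22.8%, the full cAMP response element TGACGTCA, which holds TGACG, in 1.55%, the AP-1 site TGANTCA in 6.75% and the CArG box, the core of a serum response element, in 1.47%. None of the last 3 motifs was found in a window of a member. Elements farther than 250 bases upstream, serum response elements among them, lay outside the windows and were not searched. A match describes letters in the window and not a bound site.

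Per kilobase of transcript, the members differed widely in level. In the PFC at 3 h the order was led by Junb (16.4 ± 5.23 CPM per kb with saline, SD, n = 8), Jund (10.8 ± 2.00), Fos (8.72 ± 2.81) and Jun (8.69 ± 0.661), of which Fos and Jun, and Jund and Fos, did not differ beyond their spread. With psilocybin Junb (13.5 ± 5.13) and Jund (12.8 ± 4.93) did not either. Fosl2, which encodes Fra-2, followed at 4.02 ± 0.732 CPM per kb and Fosb at 2.13 ± 0.460. In the other 6 groups (PFC at 4 weeks and hypothalamus at both times) Jund was highest and Jun second, with 16.7 ± 2.33 and 11.4 ± 1.05 CPM per kb in the saline hypothalamus at 3 h (n = 7), whereas Fosb stood at 0.603 ± 0.0938 there. Fosl1, which encodes Fra-1, was lowest in every group. It gave 126 counts over all 62 libraries and none in 19 of them, where a count of 0 allows up to 0.110 to 0.335 CPM (3 counts of the library, counting error only). Fosl1 also overlaps Ccdc85b on the other strand, which had up to 4077 counts in a library, so its few counts are uncertain.

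**Figure D1:**
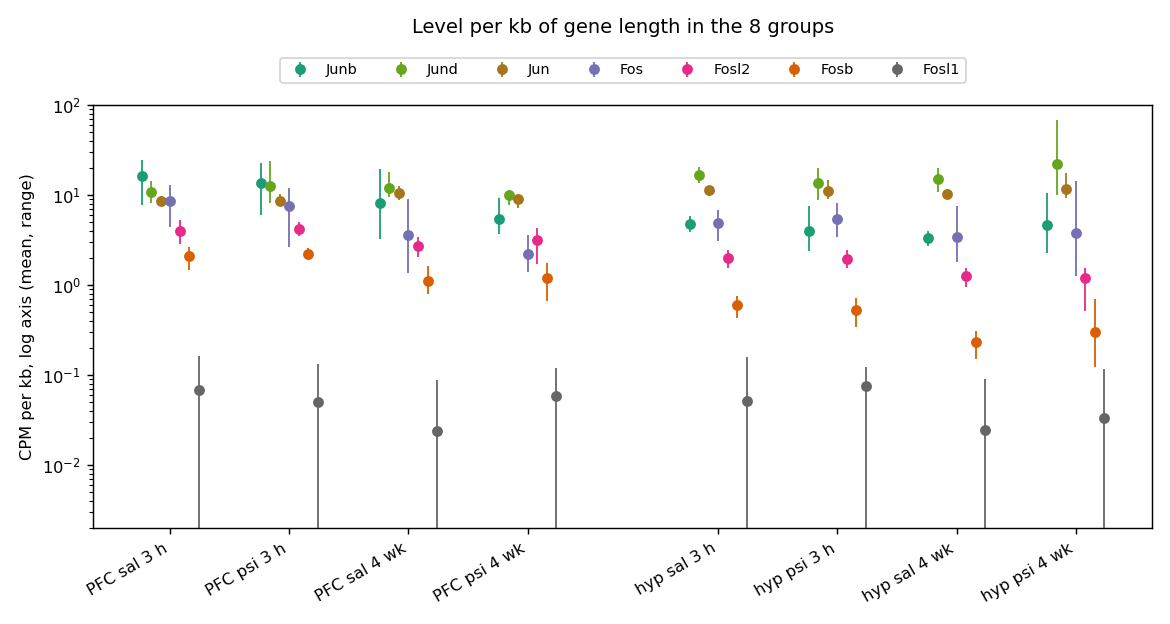
Level of each member in CPM per kilobase of transcript (logarithmic axis) in the 8 groups of region, treatment and time; points are group means and bars run from the lowest to the highest library. Junb had the highest mean in the PFC at 3 h and Jund in the other 6 groups, though not beyond the spread in every group. Fosl1 was lowest in all 8, with bars that reach the bottom of the axis where a library had 0 counts.

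Identities and positions were those of the GENCODE vM25 annotation on GRCm38 carried by the count table. Fos (ENSMUSG00000021250.13) lies on chr12:85473890-85477273, Fosb (ENSMUSG00000003545.3) on chr7:19302696-19310051, Fosl1 (ENSMUSG00000024912.6) on chr19:5447547-5455946 and Fosl2 (ENSMUSG00000029135.10) on chr5:32135801-32157842. Jun (ENSMUSG00000052684.4) lies on chr4:95049034-95052222, and Junb (ENSMUSG00000052837.7) and Jund (ENSMUSG00000071076.6) share a chromosome, at chr8:84976910-84978718 and chr8:70698949-70700616. Counts are of reads over all exons of a gene. The antisense gene Junos overlaps Jun and reached at most 66 counts in a library.

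To examine whether psilocybin changed the family, psilocybin and saline were compared in each region and at each time. None of the 6 tested members differed at an adjusted p below 0.05 (edgeR quasi-likelihood test, Benjamini-Hochberg adjusted over 18971 genes) in any of the 4 comparisons. Over all genes the share called was 0.0105% in the PFC at 3 h and 0% in the other 3 comparisons. This share depended on the fit: in the PFC at 3 h the number of all tested genes called was 2 in edgeR, 1232 with voom, quality weights and the mouse as a random block and 3545 without the 4 libraries of lowest weight, and in the hypothalamus at 4 weeks it was 0 in edgeR and 464 with an offset for GC content and length. The number of members called was 0 in each of these fits. At an unadjusted p below 0.05 in edgeR the members passing were 0, 2, 0 and 1 of 6 in the PFC at 3 h and 4 weeks and the hypothalamus at 3 h and 4 weeks, beside 7.23%, 2.4%, 1.78% and 9.61% of all genes, and DESeq2 called 0 members after adjustment in each. A p that misses the threshold does not show that the groups were alike, and the intervals below give the range of differences that remained possible. In bulk tissue, fewer cells of a type and less RNA per cell cannot be told apart.

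Fos in the PFC at 3 h ran from 10.6 through a median of 19.8 to 30.6 CPM with saline and from 6.34 through 17.9 to 28.7 CPM with psilocybin. The groups overlapped over most of their range. The log2 difference between psilocybin and saline was -0.22 (95% interval -0.91 to 0.48). In the hypothalamus at 3 h, Fos ran from 7.38 through 11.4 to 16.2 CPM with saline and from 8.17 through 12.5 to 19.5 CPM with psilocybin, a log2 difference of 0.11 (-0.63 to 0.85).

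At 4 weeks, Fos in the PFC had a median of 4.78 CPM with saline (3.25 to 21.6) and 5.16 CPM with psilocybin (3.28 to 8.52), and the saline group held 2 high libraries, replicates 3 and 5. The difference was -0.69 on the log2 scale (-1.46 to 0.08), and it was -0.38 without the first of these and -0.29 without the second. In the hypothalamus the medians were 6.66 CPM with saline (4.30 to 17.8) and 5.61 CPM with psilocybin (2.98 to 34.0), with replicate 3 the highest in both groups. The log2 difference was 0.12 (-0.62 to 0.85) and was below 0 in 5 of 16 other settings, at -0.53 without the 9 libraries with Alb. Without psilocybin replicate 3 alone it was -0.52.

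Among the partners, Junb in the PFC at 4 weeks ran from 5.89 through 11.99 to 35.9 CPM with saline and from 6.77 through 8.52 to 17.0 CPM with psilocybin, and the ranges overlapped. Its log2 difference of -0.59 and that of Jun, -0.21, passed an unadjusted p of 0.05 but had an adjusted p of 1 in edgeR, and that of Junb was -0.26 without saline replicate 3. In the hypothalamus at 4 weeks the Junb difference was 0.48, and 0.20 without psilocybin replicate 3. Jund in the hypothalamus at 4 weeks had medians of 24.6 CPM with saline and 23.4 CPM with psilocybin, but psilocybin replicate 5 reached 115 CPM. The log2 difference was 0.56 (adjusted p = 0.448 in edgeR), and it was 0.07 without that library. The median log2 difference over the 6 members was 0.03, -0.26, -0.11 and 0.24 in the PFC at 3 h and 4 weeks and the hypothalamus at 3 h and 4 weeks, beside -0.01, -0.01, 0.00 and 0.01 over all genes.

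**Figure D2:**
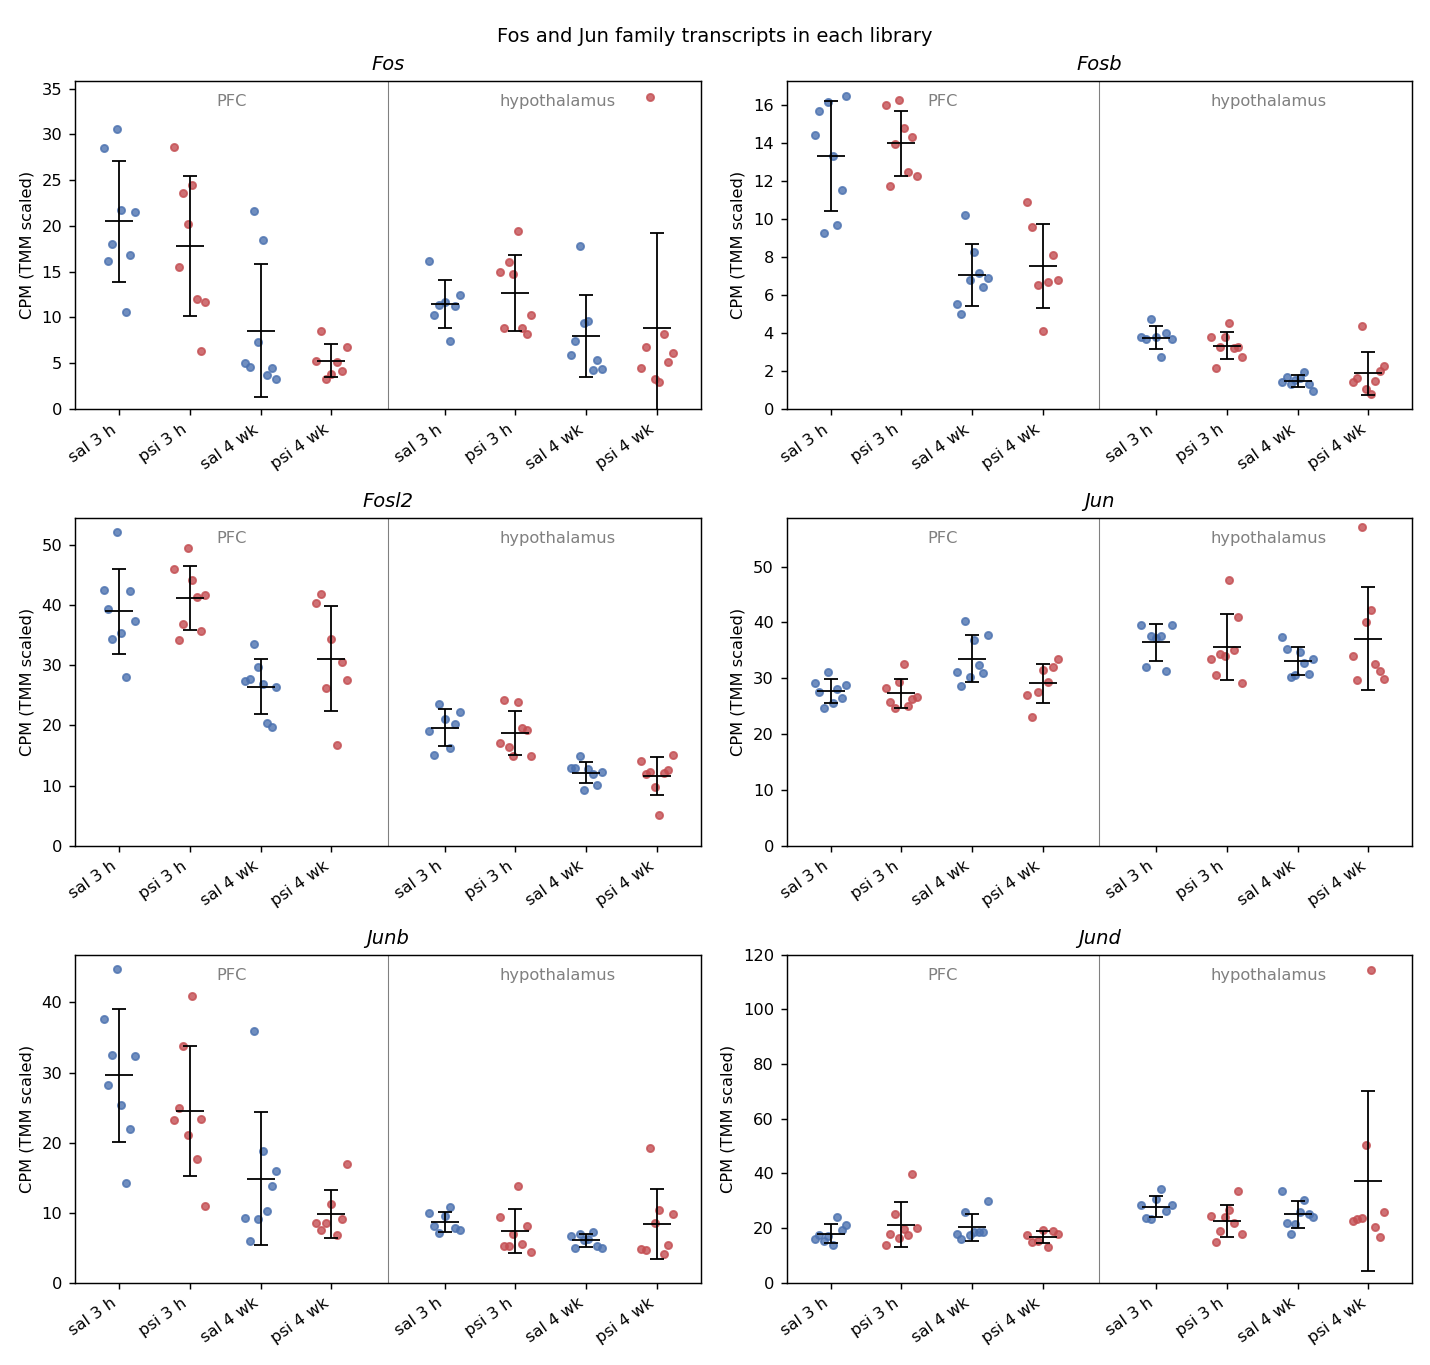
CPM of the 6 tested members in each library, by region, treatment and time; each point is 1 library, and bars show the group mean and SD. Psilocybin and saline points overlap for every member, Fos, Fosb and Junb were higher at 3 h than at 4 weeks in the PFC with either treatment and Fosl2 with saline, and the hypothalamic psilocybin group at 4 weeks holds the highest Fos (34.0 CPM) and Jund (115 CPM) values.

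The 3 h and 4-week groups of the same treatment were compared to place the levels in time. In the saline PFC, 4 of the 6 members were higher at 3 h: Fos, Fosb, Fosl2 and Junb. In the psilocybin PFC it was 3 of 6 (Fos, Fosb and Junb), and in the hypothalamus 2 of 6 (Fosb and Fosl2) with either treatment. No member was lower at 3 h at an adjusted p below 0.05 in edgeR, whereas in other fits Jun in the saline PFC was called lower in 3 of 15 settings (lowest adjusted p = 0.0362) and Jund in the psilocybin hypothalamus in 3 of 15 (lowest adjusted p = 0.00163) and without either of 2 single libraries of 16. Over all genes, 4.72% were called in the saline PFC (2.39% higher and 2.34% lower), 5.96% in the psilocybin PFC (2.7% and 3.26%), 0.685% in the saline hypothalamus (0.522% and 0.163%) and 1.16% in the psilocybin hypothalamus (0.743% and 0.416%). The 4 comparisons share their groups with those of psilocybin and saline.

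Fosb, whose stable splice product ΔFosB is known to build up in neurons with repeated stimulation, was higher at 3 h in all 4 comparisons. In the saline PFC it ran from 9.25 through 13.9 to 16.5 CPM at 3 h and from 5.02 through 6.85 to 10.2 CPM at 4 weeks (log2 difference 0.90 ± 0.180 SE, adjusted p = 0.000845 in edgeR). In the psilocybin PFC it ran from 11.8 through 14.1 to 16.3 CPM and from 4.12 through 6.78 to 10.9 CPM (0.90 ± 0.188, adjusted p = 0.00138 in edgeR), and the ranges did not overlap, as in 0.965% of genes. The counts do not separate the splice forms of Fosb.

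In the saline hypothalamus Fosb ran from 2.73 through 3.77 to 4.73 CPM at 3 h and from 0.944 through 1.47 to 1.93 CPM at 4 weeks. These ranges did not overlap either, as in 0.859% of genes, and the difference was 1.37 ± 0.210 (adjusted p = 2.44e-05 in edgeR). In the psilocybin hypothalamus it ran from 2.15 through 3.27 to 4.51 CPM and from 0.773 through 1.55 to 4.37 CPM (0.89 ± 0.202, adjusted p = 0.0101), and the call ended with only these 2 groups in the fit (0.86, adjusted p = 0.319). The highest 4-week value there was replicate 3, the library with the most Alb.

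Fosl2 ran from 28.1 through 38.3 to 52.1 CPM at 3 h and from 19.8 through 27.1 to 33.4 CPM at 4 weeks in the saline PFC (0.56 ± 0.138, adjusted p = 0.00906 in edgeR). In the saline hypothalamus it ran from 15.1 through 20.2 to 23.6 CPM and from 9.31 through 12.5 to 14.9 CPM, without overlap (0.70 ± 0.148, adjusted p = 0.00653, and 0.0519 with all 64 libraries). In the psilocybin hypothalamus the medians were 18.1 and 12.1 CPM (0.71 ± 0.144, adjusted p = 0.00323), and the call ended with only these 2 groups in the fit (0.69, adjusted p = 0.187). In the psilocybin PFC the difference was 0.41 with an adjusted p of 0.0762, and it was called in 6 of 15 other settings.

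For Fos, medians in the saline PFC were 19.8 CPM at 3 h and 4.78 CPM at 4 weeks, with ranges of 10.6 to 30.6 and 3.25 to 21.6 CPM. The groups overlapped through the same 2 high 4-week libraries, and the difference was 1.23 ± 0.357 (adjusted p = 0.0325 in edgeR). This call lay near the threshold: it ended without any 1 of 8 libraries (log2 difference 1.11 to 1.6 and adjusted p 0.00423 to 0.0778 over the 16), namely saline replicates 1, 2, 4, 6, 7 or 8 at 4 weeks and 4 or 8 at 3 h, and it ended without the libraries with Alb (0.90, adjusted p = 0.0754). In the psilocybin PFC the medians were 17.9 and 5.16 CPM, and the difference was 1.70 ± 0.388 (adjusted p = 0.0039).

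In the hypothalamus the Fos difference was 0.63 with saline (adjusted p = 0.764) and 0.62 with psilocybin (adjusted p = 0.363). Psilocybin replicate 3 at 4 weeks, at 34.0 CPM, decided the second value: without it the difference was 1.24 with an adjusted p of 0.0427 in edgeR. The same library carried 3789 CPM of Alb, and without all 9 libraries with Alb the value was 1.02 (adjusted p = 0.128).

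Junb, the Jun partner most often induced together with Fos, had medians of 30.2 CPM at 3 h and 11.99 CPM at 4 weeks in the saline PFC (14.2 to 44.8 and 5.89 to 35.9 CPM), with overlap of the groups. The difference was 0.96 ± 0.274 (adjusted p = 0.0277 in edgeR), and it was lost without any 1 of 6 libraries (saline replicates 1, 2, 4 or 6 at 4 weeks and 4 or 8 at 3 h; 0.84 to 1.34, adjusted p 0.00106 to 0.082 over the 16) and without the libraries with Alb (0.86, adjusted p = 0.0637). In the psilocybin PFC the medians were 23.3 and 8.52 CPM (1.29 ± 0.292, adjusted p = 0.00366). In the hypothalamus Junb gave 0.53 with saline (adjusted p = 0.734) and -0.19 with psilocybin (adjusted p = 0.764), which was 0.09 without psilocybin replicate 3 at 4 weeks and -0.40 without psilocybin replicate 5 at 3 h.

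Jun had values of 24.7 to 31.2 CPM at 3 h and 28.6 to 40.2 CPM at 4 weeks in the saline PFC, a difference of -0.27 with an adjusted p of 0.0866 in edgeR. Jund gave -0.18 (adjusted p = 0.729) there and -0.71 (adjusted p = 0.0971) in the psilocybin hypothalamus, where replicate 5 at 4 weeks stood at 115 CPM and the value without it was -0.22 (adjusted p = 0.745). RNA of each region was extracted in 2 pools named in the labels. Within the pools, differences were taken between means of log2 CPM, unlike the edgeR estimates above. Those of the saline PFC were 1.52 and 1.58 for Fos, 1.02 and 0.80 for Fosb, 0.50 and 0.61 for Fosl2 and 1.6 and 0.65 for Junb. Those of the psilocybin PFC were 2.00 and 1.30 for Fos, 0.70 and 1.09 for Fosb and 1.63 and 0.99 for Junb, and those of the hypothalamus were 1.38 and 1.25 for Fosb and 0.61 and 0.75 for Fosl2 with saline and 0.78 and 1.10 and 0.58 and 0.88 with psilocybin, so that every called difference kept its direction in both pools.

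**Figure D3:**
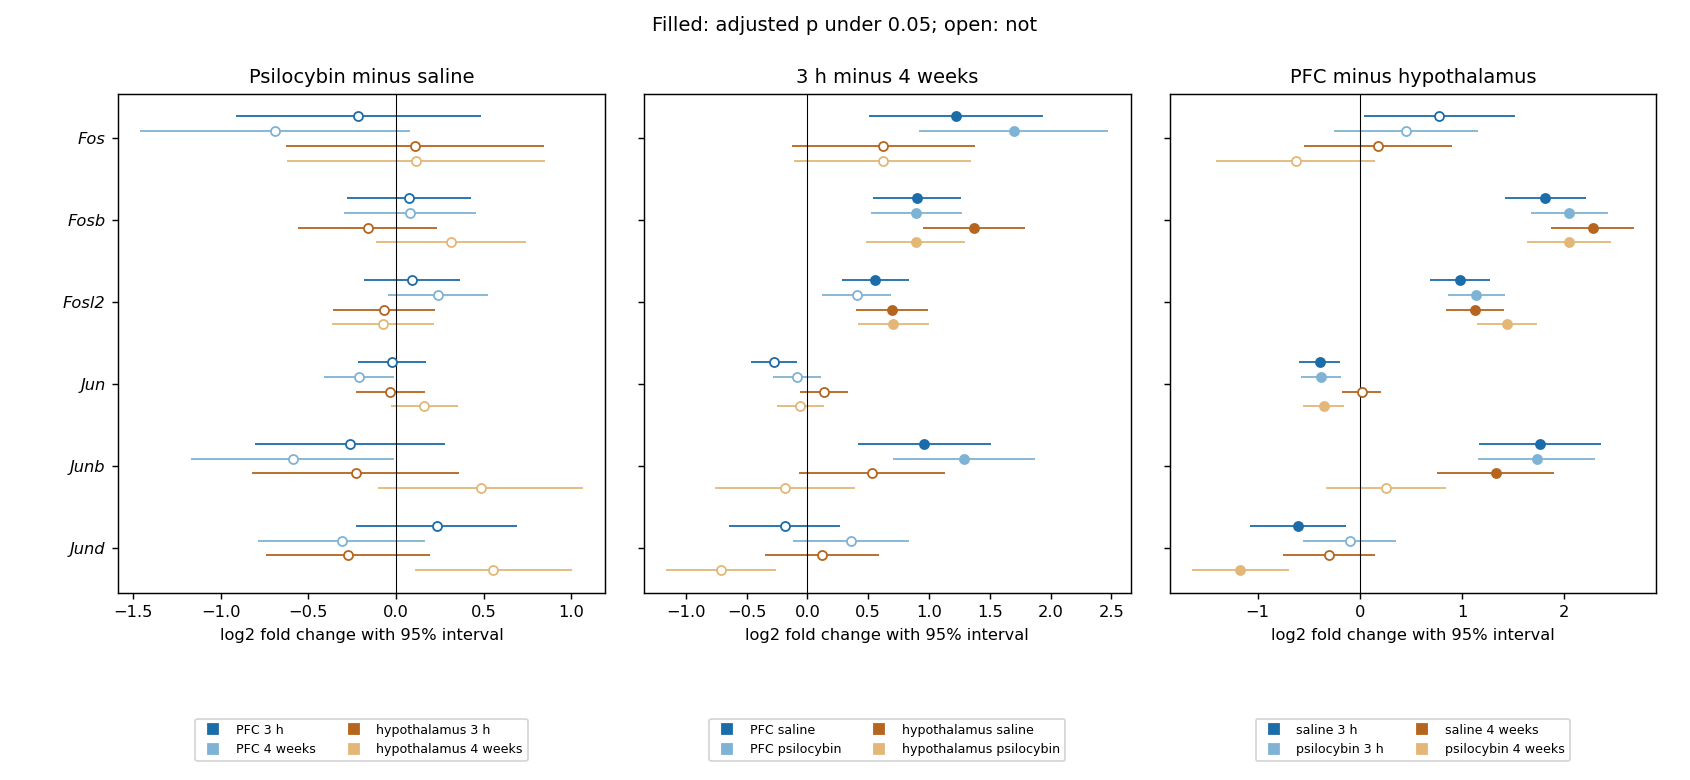
Log2 differences of the 6 tested members with 95% intervals for psilocybin against saline, 3 h against 4 weeks and PFC against hypothalamus; filled symbols have an adjusted p below 0.05 (edgeR over 18971 genes). No symbol is filled for psilocybin against saline, and Fosb is filled in all 4 comparisons of time and all 4 of region.

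Some hypothalamic markers in PFC tissue moved with time too: 2 of 9 were lower at 3 h in the saline PFC, beside 2.34% of all genes, and the summed level of the 9 was 1.77 to 6.69 CPM at 3 h (median 3.38) and 3.08 to 23.4 CPM at 4 weeks (median 4.73), against sums of at least 405.6 CPM in the hypothalamus. In the psilocybin PFC 0 of 9 were called. Striatal markers reached a sum of 1184 CPM in 1 library of the saline PFC at 4 weeks, where the median was 152.4 CPM. Of the microglia markers, 1 of 4 was higher at 3 h in the PFC with either treatment, and with psilocybin so were 1 of 4 astrocyte and 1 of 4 immune and wound markers. The shares of all genes higher at 3 h in the PFC were 2.39% with saline and 2.7% with psilocybin. The part of any of these in the differences was not tested.

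Whether the responses themselves differed was tested with interaction terms. The psilocybin effect did not differ at an adjusted p below 0.05 between 3 h and 4 weeks or between the regions for any of the 6 members (0% of all genes in each of these 4 comparisons, and 3.08%, 5.27%, 2.78% and 6.69% at an unadjusted p below 0.05 in the PFC and hypothalamus between the times and at 3 h and 4 weeks between the regions, where 0, 1, 0 and 3 of the 6 members passed). For Fos, the psilocybin effect at 3 h minus that at 4 weeks was 0.47 (95% interval -0.57 to 1.51) in the PFC and -0.01 (-1.05 to 1.03) in the hypothalamus. The first value was 0.07 without saline replicate 5 at 4 weeks, 0.16 without saline replicate 3 at 4 weeks and 0.31 without psilocybin replicate 5 at 3 h, and the second ranged from -0.21 to 0.65 without single libraries, with the highest value without psilocybin replicate 3 at 4 weeks. At 4 weeks the psilocybin effect in the PFC minus that in the hypothalamus was -0.37 for Jun, -1.07 for Junb and -0.87 for Jund, each with an adjusted p of at least 0.682 in edgeR. Without psilocybin replicate 5 of the hypothalamus the value of Jund was -0.39, and with voom, quality weights and the mouse as a random block the 3 values were -0.20, -0.52 and -0.27. The saline difference between 3 h and 4 weeks in the PFC minus that in the hypothalamus gave 0.60 for Fos (-0.43 to 1.64), -0.46 for Fosb (-1.01 to 0.09), 0.43 for Junb (-0.38 to 1.25) and -0.41 for Jun (adjusted p = 0.443), beside 0.0369% of genes called (5.84% at an unadjusted p below 0.05). The call of Fos and Junb in the PFC and not in the hypothalamus of saline mice was therefore not shown to be a difference between the regions, and the same difference in psilocybin mice was not tested.

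Between the regions, Fosb and Fosl2 were higher in the PFC in all 4 comparisons and Junb in 3, Jun was lower in 3 and Jund in 2, and Fos was called in none in the edgeR fit of all 62 libraries. That fit did not pair the 2 libraries of a mouse, unlike the setting with the mouse as a block given below. The shares of all genes called were 54.9% and 55.2% with saline at 3 h and 4 weeks and 56.2% and 58% with psilocybin, so a call in this comparison is common. Each extraction pool held libraries of a single region, so region and extraction cannot be told apart. Fosb was higher in the PFC by 1.82, 2.28, 2.05 and 2.04 on the log2 scale (saline 3 h, saline 4 weeks, psilocybin 3 h, psilocybin 4 weeks), and Fosl2 by 0.98, 1.12, 1.14 and 1.44. Junb was higher by 1.76, 1.33 and 1.73 in the first 3 of these, whereas the psilocybin group at 4 weeks gave 0.26 (adjusted p = 0.473 in edgeR), and 0.54 (adjusted p = 0.0346) with the mouse as a block.

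Jun was lower in the PFC in 3 of 4 comparisons (-0.39, -0.38 and -0.36), with 0.02 (adjusted p = 0.892 in edgeR) in the saline groups at 4 weeks. Jund was lower with saline at 3 h (-0.61, adjusted p = 0.0246) and with psilocybin at 4 weeks (-1.17, and -0.69 with an adjusted p of 0.00111 without psilocybin replicate 5 of the hypothalamus). With saline at 4 weeks it gave -0.30 (adjusted p = 0.257 in edgeR), which was called in 3 of 14 other settings. The call with saline at 3 h ended without the libraries with Alb (-0.55, adjusted p = 0.0527) and without saline replicate 5 of the PFC at 3 h (-0.55, adjusted p = 0.0503). Fos passed in none of the 4 comparisons, with log2 differences of 0.78 (adjusted p = 0.0698), 0.18, 0.45 and -0.63 in saline mice at 3 h and 4 weeks and psilocybin mice at 3 h and 4 weeks. The last value rested on psilocybin replicate 3 of the hypothalamus, the library with the most Alb: it was 0.00 without that library and -0.08 without the 9 libraries with Alb. The second was -0.19 without either of saline replicates 3 and 5 of the PFC. Fos was called higher in the PFC in 4 of 14 other settings in saline mice at 3 h and in 3 of 14 in psilocybin mice at 3 h. In saline mice at 3 h the value was 0.81 (adjusted p = 0.0366) with the cage number as a block and 0.85 (adjusted p = 5.45e-06) with the mouse as a block, and in psilocybin mice at 3 h it was 0.43 (adjusted p = 0.00671) with the mouse as a block and 0.76 (adjusted p = 0.0253) without the libraries with Alb.

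The members also differed in how far mice of a group spread. The biological coefficient of variation, the square root of the edgeR dispersion, was 0.473 for Fos (94.1 percentile of the tested genes) and 0.374 for Junb (86.7 percentile). It was 0.304 for Jund, 0.233 for Fosb, 0.189 for Fosl2 and 0.130 for Jun, with a median of 0.175 over all genes. Fos and Junb were thus the members whose comparisons had the widest intervals.

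The deviation of Fos from its group mean was shared by the PFC and the hypothalamus of a mouse. Over the 30 mice with both regions, Pearson's r was 0.814 and Spearman's rho 0.819 (permutation test, p = 1e-05 for both, the smallest that 100000 draws can give, adjusted p = 6e-05 over 6 members). Without the 2 mice farthest from the median of the PFC values r was 0.758. It was 0.820 and 0.784 within the extraction pools (14 and 16 mice), 0.853 at 3 h and 0.811 at 4 weeks (15 mice each), 0.896 with saline and 0.735 with psilocybin, and 0.781 in the 23 mice without Alb in either region.

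For Fosb r was 0.431 (adjusted p = 0.0551, permutation test) and rho 0.351 (adjusted p = 0.173), and for Junb r was 0.362 (adjusted p = 0.0997). Jun, Jund and Fosl2 had r of 0.252, 0.169 and 0.057. Over all tested genes the median r was 0.104, and Fos stood at the 99.98 percentile. Both regions of a mouse shared the animal, the time of killing and the cage, and the part of each in the relation was not tested.

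**Figure D4:**
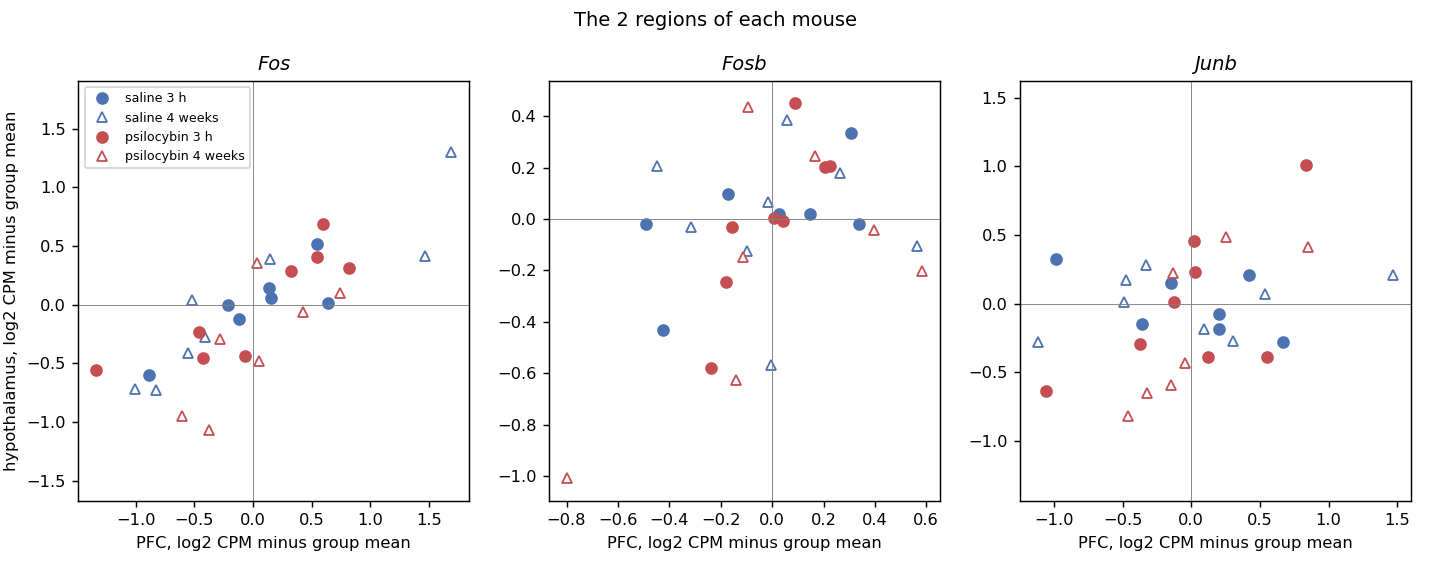
Deviation of log2 CPM from the group mean in the hypothalamus against that in the PFC of the same mouse for Fos, Fosb and Junb; each point is 1 of 30 mice. The points of Fos lie along a rising line (r = 0.814), and those of Fosb (0.431) and Junb (0.362) scatter more widely.

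Among 4-week mice, the 3 kept libraries of cage number 3 had Fos of 17.8 to 34.0 CPM (mean 24.5), whereas the means of the other 7 cage numbers were 4.79 to 8.74 CPM. Time and cage number together took 60.2% of the sum of squares of Fos within groups (median over all genes 31.9%). A cell of time and cage number holds up to 4 libraries, from both regions of 2 mice, so this share includes what the regions of a mouse have in common, and the 3 libraries of cage number 3 come from 2 mice. This cage was picked out after its values were seen. As a description, the Fos deviations of mice with the same cage number and time but opposite treatment had r = -0.010 in the PFC and 0.445 in the hypothalamus over 15 pairs each.

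Relations between members within a region were computed over the 31 libraries with group means removed. Of 30 relations, 6 passed an adjusted p of 0.05 by both coefficients (permutation tests), all of them positive. In the PFC these were Jun with Junb (r = 0.630, rho = 0.582), Fos with Junb (0.597, 0.490), Fos with Fosb (0.544, 0.580) and Fos with Fosl2 (0.456, 0.562), with adjusted p of 0.0013, 0.00323, 0.00895 and 0.0433 for r. In the hypothalamus they were Jun with Junb (0.732, 0.554) and Fos with Fosb (0.717, 0.511), with adjusted p of 0.0003 and 0.0006 for r. Without the 2 farthest libraries r was 0.576, 0.441, 0.439, 0.436, 0.482 and 0.637 for Jun with Junb, Fos with Junb, Fos with Fosb and Fos with Fosl2 in the PFC and Jun with Junb and Fos with Fosb in the hypothalamus. The hypothalamic relation of Jun with Junb was 0.475 in the 26 libraries without Alb. Fosl2 and Jund moved in opposite directions in the hypothalamus by Pearson's r (-0.637, adjusted p = 0.00895, permutation test), but rho was -0.414 (adjusted p = 0.0603), and r was -0.335 without the 2 farthest libraries and -0.292 without those of lowest weight.

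The genes whose deviations were most like those of a member, over the 31 libraries of a region and among genes of at least 1 CPM, were described by their r. For Fos in the PFC they were Egr2 (0.83), Arc (0.78) and Nr4a1 (0.77), and in the hypothalamus Egr1 (0.84), Igf1 (0.78) and Slc25a13 (0.77). For Junb in the PFC they were Arc (0.83), Dusp1 (0.80) and Irf2bpl (0.79), whereas in the hypothalamus they were Mlxipl (0.78), Cyp2d26 and Apoh, genes known for expression in liver. Without the libraries with Alb (26 left in the hypothalamus), r was 0.47, 0.47 and 0.44 for the last 3 and 0.35 for Fos with Slc25a13. Fosb was most like Arfgap2 in the PFC (0.77) and Egr1 in the hypothalamus (0.78, and 0.63 without the libraries with Alb), Fosl2 most like Aldh1a3 (0.71) and Fgf2 (0.91), and Jun most like Plekhf1 (0.70) and Sec14l2 (0.84, and 0.62 without the libraries with Alb).

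For Jund the nearest genes were Pcsk1n, Tpgs1 and C1qtnf4 in the PFC (0.92, 0.91 and 0.91) and Pcsk1n, Tpgs1 and Ccdc85b in the hypothalamus (0.98, 0.97 and 0.97). The Jund transcript has a GC content of 67.1% (99.8 percentile of the tested genes, median 49.5%), and its deviation rose with the slope of all genes of a library on GC content. That relation had r of 0.741 and rho of 0.680 in the PFC and 0.898 and 0.823 in the hypothalamus (permutation tests, adjusted p of 6e-05, 0.00024, 6e-05 and 0.00012 over 12 relations). Without the 2 farthest libraries r was 0.571 and 0.755, and within the pools it was 0.591 and 0.774 in the PFC and 0.789 and 0.933 in the hypothalamus. Fosl2 in the hypothalamus went the other way, with r of -0.757 and rho of -0.555 (adjusted p of 0.00048 and 0.0062, permutation tests) and -0.416 without the 2 farthest libraries. The part of base composition in the values of Jund and Fosl2 was not tested beyond the offset given among the settings.

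Genes around the family were described from 6 lists: dimer partners and other bZIP factors (18 tested), upstream transcription factors (17), upstream kinases (20), regulators of Fos and Jun proteins (13), genes described as AP-1 targets (19) and other immediate early genes (21). With psilocybin against saline, 0 genes of each list were called in all 4 comparisons. The median log2 difference of the other immediate early genes was -0.07 in the PFC and -0.07 in the hypothalamus at 3 h, and -0.13 in the PFC and 0.12 in the hypothalamus at 4 weeks.

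Between 3 h and 4 weeks, other immediate early genes were the list with the most calls in the PFC. In the saline PFC 12 of 21 were higher at 3 h, beside 2.39% of all genes (median log2 difference 0.56, and 0.00 over all genes), led by the transcription factors Egr2 (2.44 ± 0.305, adjusted p = 1.45e-07 in edgeR) and Nr4a3 (1.27 ± 0.160) and the clock gene Per1 (0.76 ± 0.118). In the psilocybin PFC 12 of 21 were higher, beside 2.7% of all genes (median 0.69, and 0.01 over all genes), led by Egr2 (2.33), Ier5 (0.69) and Nr4a3 (1.10). In the hypothalamus 0 of 21 were called with either treatment (medians 0.22 with saline and 0.05 with psilocybin). In the test of the saline time difference between the regions, Ier5 (0.73, adjusted p = 0.0116) passed, as the only one of the 21.

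Of the dimer partners, Jdp2, a repressor that binds Jun proteins, was higher at 3 h in the PFC with saline (0.41, adjusted p = 0.00411 in edgeR) and with psilocybin (0.52, adjusted p = 0.000313). Dusp6, a phosphatase of ERK, was higher in the PFC with saline (0.67) and with psilocybin (0.90), and Dusp1, a phosphatase of stress-activated kinases, with psilocybin (0.81). Srf, the factor of the serum response element, and its coactivator Mrtfa were higher in the psilocybin PFC (0.47 and 0.30). Mafg (0.20) and the kinases Rps6ka2 (0.42) and Mapk14 (0.17) were higher in the saline PFC, and Nfe2l2 (0.54) and Maff (1.05) in the psilocybin PFC. With saline this made 2 of 18 dimer partners, 0 of 17 upstream factors, 2 of 20 kinases and 1 of 13 regulators, beside 2.39% of all genes. With psilocybin it made 3, 2, 0 and 2 of these, beside 2.7%. In the PFC 0 genes of these lists were called for the psilocybin effect at 3 h minus that at 4 weeks. A call with only 1 treatment was therefore not shown to be a difference between the treatments.

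Among genes described as AP-1 targets, the growth factor Bdnf was higher at 3 h in the hypothalamus with saline (0.40 ± 0.0926, adjusted p = 0.0179 in edgeR) and psilocybin (0.51 ± 0.0901, adjusted p = 0.000286) and in the PFC with psilocybin (0.37 ± 0.0899, adjusted p = 0.007). In each of these it was 1 of 19 tested targets, beside 0.522%, 0.743% and 2.7% of all genes higher at 3 h. The neuropeptide gene Nts was the only listed gene lower at 3 h, in the saline PFC (-2.75 ± 0.649, adjusted p = 0.00612), where it stood at 0.479 ± 0.296 CPM at 3 h (SD, n = 8) and at 3.05 ± 4.29 CPM at 4 weeks (n = 8), an SD above the mean. Of the hypothalamic markers, 2 of 9 were also lower in this comparison, beside 2.34% of all genes, and their part in it was not tested.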

How the data were processed

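Libraries from the PFC and hypothalamus of 32 mice were sequenced with 52-bp paired-end reads. The authors deposited 1 table of raw gene counts for 64 libraries, made per the labels and the study's methods with bcl2fastq 2.20.0, STAR 2.7.2b and featureCounts 1.6.2 on GRCm38 with GENCODE vM25. Per the study's methods the TruSeq Stranded mRNA kit, which keeps strand, was used, and a read pair was counted where its ends shared a strand. Whether that strand also had to be the gene's own is not given in the sources used here, so reads of overlapping antisense genes may not be separated. Libraries with under 1000000 counts were left out (2 of 64). The study also dropped a sample rich in immune and wound healing transcripts, which the sources used here do not name, and no library was dropped for that reason here. Gene symbols were matched for 55141 of 55401 identifiers.

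Counts were fitted with edgeR 4.0.16 in R 4.3.3 (TMM scaling, filterByExpr with a minimum count of 10, robust quasi-likelihood test) over 62 libraries with group and extraction pool as terms, 17 contrasts and Benjamini-Hochberg adjustment over 18971 genes at 0.05. Alternatives used DESeq2 1.42.0 and limma 3.58.1 (voom with quality weights and the mouse as a random block, as in the study), other scaling, filters, covariates and libraries. The code was tested on simulated data with known changes. Log2 CPM for relations between libraries used a prior count of 2, with group means removed, and pools too for likeness.

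Named genes were the 7 members, up to 3 called genes with the smallest p per list and contrast, and the 3 genes most like each member per region. The members and lists were chosen with earlier results of these data known. P-values measure the spread between mice. The main edgeR fit had no term for the mouse, so its tests between the regions did not use the pairing of both regions of a mouse. The depth limits low members such as Fosl1, and no pair of libraries in a group was alike within sampling noise (210 pairs, chi-square of at least 3.85 per degree of freedom). The labels give the replicate number as the cage, but whether 3 h and 4-week mice of the same number shared a cage is not stated. The mean correlation of same-numbered libraries was 0.0806 in the PFC and 0.0723 in the hypothalamus with groups removed, beside -0.0423 and -0.0385 for other pairs. With pools removed as well it was -0.0415 and -0.0236, beside -0.0294 and -0.0274. All sample columns were used or mapped to a sample, and promoter sequences were from RefSeq on GRCm38.p6.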

Additional observations from a re-analysis of the deposited data

Results flagged for a closer look

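In 48 sets of a member and a group, the highest or lowest library lay apart from the rest of its group by Dixon's 95% criterion in 9, where chance gives about 1 in 20. Of these, 4 were psilocybin replicate 3 of the hypothalamus at 4 weeks, with Fos at 34.0, Fosb at 4.37, Jun at 57.0 and Junb at 19.2 CPM. That library also had the most Alb of all libraries (3789 CPM). Saline replicate 3 of the hypothalamus at 4 weeks stood apart for Fos (17.8 CPM), and saline replicate 3 of the PFC at 4 weeks for Junb (35.9 CPM). Psilocybin replicate 8 of the PFC at 4 weeks stood apart for Junb (17.0 CPM). For Jund, psilocybin replicate 5 of the hypothalamus at 4 weeks (115 CPM) and psilocybin replicate 7 of the PFC at 3 h (39.9 CPM) stood apart, and these 2 libraries had the lowest quality weights by voom (0.0276 and 0.12). The part of liver RNA, library quality and cage in these values was not tested.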

How the results depend on the processing

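Psilocybin against saline gave 0 called members under every setting and without any single library, also with the cage number within a time point as replicate block. Between 3 h and 4 weeks, called members in the saline PFC fell from 4 to 2 with no filter on low counts, with only the 2 groups of the contrast and without the libraries with Alb, and rose to 5 with an offset for GC content and length, with or without replicate block, where Jun was called lower. They ranged from 2 to 4 without single libraries. With no filter the values were 1.18 for Fos (adjusted p = 0.112) and 0.92 for Junb (adjusted p = 0.126), and with only the 2 groups 1.20 (adjusted p = 0.130) and 0.92 (adjusted p = 0.137). Fos also lost its call without the extraction pool (1.23, adjusted p = 0.0508) and Junb with only the PFC (0.95, adjusted p = 0.067). In the saline hypothalamus 1 member, Fosb, was called with all 64 libraries, where Fosl2 lost its call (0.70, adjusted p = 0.0519), and 3 with only the 2 groups (Junb 0.51, adjusted p = 0.0192). In the psilocybin hypothalamus 0 were called with only the 2 groups (Fosb 0.86, adjusted p = 0.319, and Fosl2 0.69, adjusted p = 0.187), 3 were called with DESeq2 and with the offset (Jund lower), and 2 to 3 without single libraries. With an offset for GC content and length, 1 member (Jund, -0.69, adjusted p = 0.0377) was called for the difference of the hypothalamic psilocybin effects. The offset and the settings without Alb were chosen after seeing the data. Between the regions, 4 to 5 members were called in saline mice at 3 h without single libraries. The cage number as replicate block changed no other call than that of Fos between the regions in saline mice at 3 h (0.81, adjusted p = 0.0366). The cause of these changes was not tested. No called difference changed sign, but differences that were not called did, such as those of psilocybin against saline for Fos in the hypothalamus at 4 weeks (-0.53 to 0.25) and Jund in the PFC at 3 h (-0.03 to 0.24). Over all tested genes, psilocybin against saline in the PFC at 3 h moved from 2 calls to 1232 with voom, quality weights and the mouse as a random block and 3545 without the 4 libraries of lowest weight, and in the hypothalamus at 4 weeks from 0 to 464 with the offset. Calls between 3 h and 4 weeks ranged from 310 to 3303 in the saline PFC (896), 552 to 3615 in the psilocybin PFC (1131), 53 to 1376 in the saline hypothalamus (130) and 31 to 1985 in the psilocybin hypothalamus (220). Levels per length scaled by raw totals moved by at most 0.920 to 1.08 times, and the genes most like a member had r of at least 0.644 in the PFC and 0.653 in the hypothalamus without the 4 libraries, a setting that keeps the library with the most Alb. Without the libraries with Alb their lowest r was 0.687 in the PFC and 0.348 in the hypothalamus.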
